A study of Drosophila melanogaster with 6 samples.

Results

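The transcripts of 34 genes that act in egg production were followed through 6 libraries of head RNA, out of 17509 genes listed in the count files. The set holds 11 genes of oocyte patterning, 10 genes of the piRNA pathway, 6 genes of egg activation, cell cycle and yolk uptake, and 7 eggshell genes. The members were chosen with earlier results of these data known, among them how osk, vas, otu and aub varied between libraries, so their levels are given as a description. All flies were 4-day-old wild-type Canton S females, grown at 25 °C and 50% relative humidity on minimal food, and they differed in whether beta-carotene had been added to it. Total RNA of whole heads gave 3 vitamin A deprived and 3 vitamin A replete libraries. How many heads went into a library, and whether libraries came from separate groups of flies, is not stated, so each p-value reflects the spread among these 6 libraries, part of which may be technical.

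In the fly ovary, nurse cells fill the oocyte with RNA and protein that pattern the embryo, and their germline keeps transposons silent with small RNAs bound by PIWI proteins. Follicle cells around the oocyte then secrete yolk protein, the vitelline membrane and the chorion, the last from genes that are amplified in those cells at the end of egg development. The ovary lies in the abdomen, and heads hold eye, brain, fat body, muscle and cuticle. Some of the listed genes are also used outside the germline, as with ovo, whose shavenbaby transcripts act in the epidermis.

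The germline transcripts and the eggshell transcripts did not vary together. Transcripts such as osk, CycB and dhd were highest in replete library 1, lower in deprived library 2 and replete library 2, lower again in deprived libraries 1 and 3, and at or near 0 in replete library 3. Eggshell transcripts such as Cp38 and Cp36 were present in replete library 2 and at or near 0 in the other 5, replete library 1 included. The transcripts of tud, orb, ovo and grk differed little between libraries. For osk, CycB and dhd both the highest and the lowest library were replete, and the SD within that group exceeded the difference between the diets' means.

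**Figure D1:**
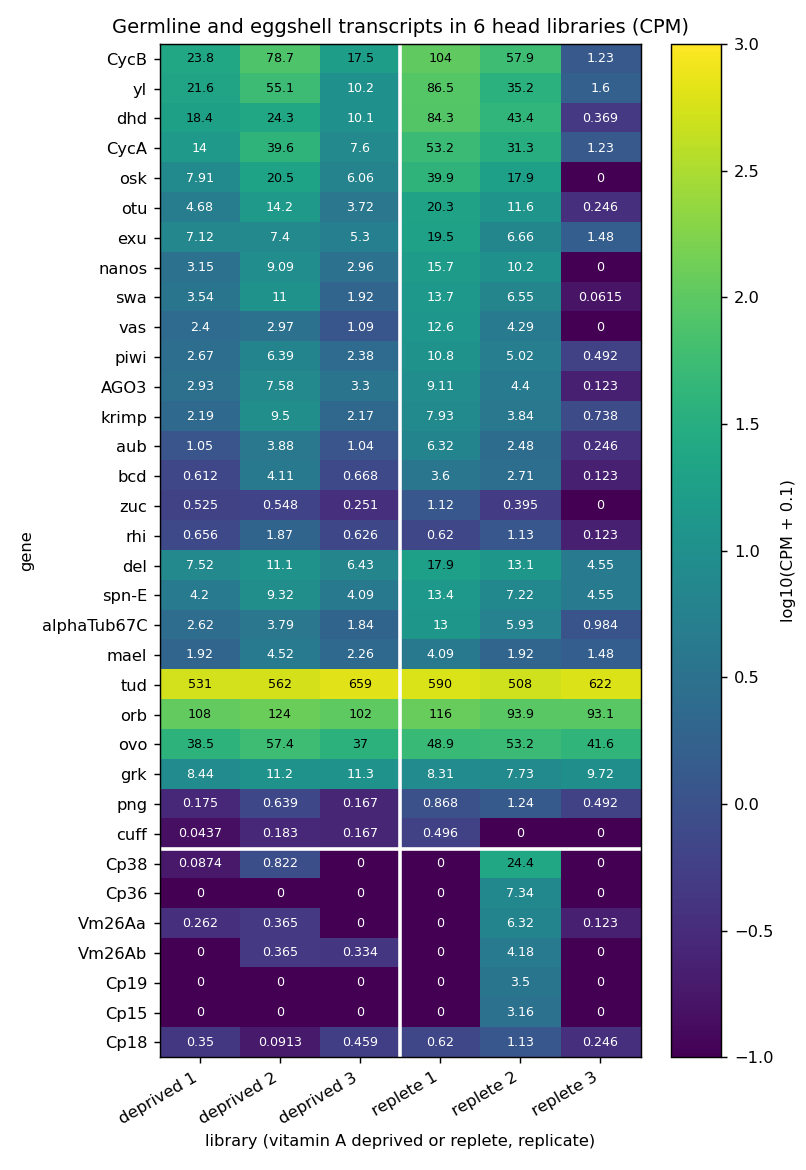
Level of each of the 34 genes (rows) in each library (columns) in CPM, printed in the cell and coloured as log10(CPM + 0.1). Genes are grouped by their level in replete library 3 relative to the other libraries, with the 7 eggshell genes below the horizontal line; CycB ran from 1.23 CPM in replete 3 to 104 CPM in replete 1, while Cp38 was at 24.4 CPM in replete 2 and at most 0.822 CPM elsewhere.

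Levels are in CPM, each gene's count relative to its library's total, on library sizes scaled by TMM, edgeR's trimmed mean of M-values. Libraries held 21344395 to 24165187 counts in the deprived and 15668307 to 17935321 in the replete group, and 3 counts, taken as the floor, stood for 0.125 to 0.186 CPM on this scale. Low counts were even more often than odd (63.7% to 69.8% of genes with 1 to 20 counts), so read pairs may have been counted as 2 reads, and counting intervals below use the counts divided by 2. They cover counting error only. Head genes were found in every library, which does not show that RNA of other tissues was absent. They included the photoreceptor genes ninaE and trp, the neuronal genes elav and nSyb and the glial gene repo. In replete library 3, 12 of 12 head genes kept at least 67% of the level of the other libraries, as did 88% of all genes. The summed level of the 12 was 22900 to 25500 CPM, of which ninaE held 10500 to 13200 CPM.

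Oocyte patterning genes formed a steady and a variable group. The mRNA of osk, whose protein assembles the pole plasm at the rear of the oocyte, was at 7.91, 20.5 and 6.06 CPM in deprived libraries 1 to 3 and at 39.9, 17.9 and 0 CPM in replete libraries 1 to 3. Replete library 3 had no osk count among 16858163, against 643 in replete library 1, and the deprived values lay between these extremes. Both genes of anterior and posterior fate beside it behaved alike in direction. The translational repressor gene nanos was at 3.15, 9.09 and 2.96 CPM in the deprived and at 15.7, 10.2 and 0 CPM in the replete libraries. The anterior determinant bcd was at 0.612, 4.11 and 0.668 CPM in the deprived and at 3.60, 2.71 and 0.123 CPM in the replete libraries. For bcd the highest library was deprived 2 and not replete 1. The bcd RNA localization factors exu and swa reached 19.5 and 13.7 CPM in replete library 1 and were at 1.48 and 0.0615 CPM in replete library 3.

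The germline helicase gene vas was at 2.40, 2.97 and 1.09 CPM in the deprived and at 12.6, 4.29 and 0 CPM in the replete libraries. Its replete library 1 value stood apart from all others, with the next at 4.29 CPM. The germ cell gene otu, a deubiquitinase needed for egg chamber growth, was at 4.68, 14.2 and 3.72 CPM in the deprived and at 20.3, 11.6 and 0.246 CPM in the replete libraries. In the annotation osk (FBgn0003015, chromosome 3R, 8935126 to 8938395) shares 84.1% of its exonic bases with the non-coding lncRNA:osk and the antisense asRNA:CR44020, and vas shares 24.6% with solo. Whether counting used strand is not stated. The antisense asRNA:CR44020 had no count and solo had 4, all in replete library 1. No entry for lncRNA:osk was found among the counted genes. It lies on the same strand as osk, so strand would not separate reads in their shared bases.

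Against these, tud, a Tudor-domain scaffold of the pole plasm, was the most abundant member at 531, 562 and 659 CPM in the deprived and 590, 508 and 622 CPM in the replete libraries. Its groups overlapped and its highest and lowest libraries differed 1.30-fold. The cytoplasmic polyadenylation factor gene orb was at 107.9, 124.1 and 101.6 CPM in the deprived and at 115.6, 93.9 and 93.1 CPM in the replete libraries. The zinc finger gene ovo was at 38.5, 57.4 and 37.0 CPM in the deprived and 48.9, 53.2 and 41.6 CPM in the replete libraries. The EGF receptor ligand gene grk was at 8.44, 11.2 and 11.3 CPM in the deprived and at 8.31, 7.73 and 9.72 CPM in the replete libraries. None of these 4 was near 0 in replete library 3, where osk, nanos and vas were at 0. For grk, 12.3% of exonic bases overlap exons of Akap200 on the opposite strand, a gene with 246 CPM in replete library 2, and reads in the shared bases cannot be assigned to either gene without the strand. Divided by exonic length, replete library 3 held 70.4 CPM per kb of tud, 9.74 of orb, 5.66 of grk and 5.63 of ovo.

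A measure of how much of each transcript replete library 3 kept, chosen after the data were seen, separates these groups. It is the CPM in replete library 3 as a percent of the median of the other 5 libraries, for the 27 members with a median of at least 10 counts there. The 17 members under 25% were osk, bcd, nanos, exu, swa, otu, vas, aub, piwi, AGO3, krimp, zuc, rhi, CycA, CycB, yl and dhd. Over all genes with enough counts, 2.06% were under 25% and 88% were at 67% or more; the members were chosen with this pattern known, so nothing is read from the difference. At 67% or more were grk at 115%, tud at 111%, orb at 86.2%, ovo at 85.1% and png at 76.9%. Just inside the 25% limit lay exu at 20.7%, and just outside it alphaTub67C at 26%. In bulk RNA, fewer cells of a type and less RNA per cell cannot be told apart.

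**Figure D2:**
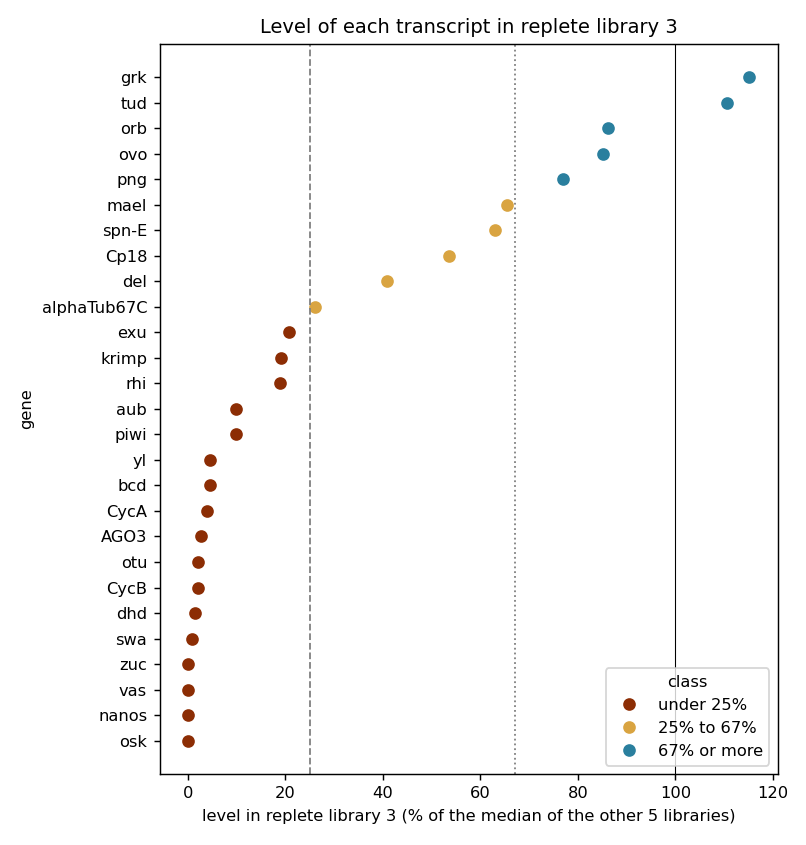
Level of each of the 27 members with enough counts in replete library 3, as a percent of the median of the other 5 libraries (horizontal axis), with dashed and dotted lines at 25% and 67%. Of the 27, 17 lie under 25%, from 0% for osk to 20.7% for exu, 5 lie between, and grk and tud lie above 100%.

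Within the piRNA pathway, the PIWI proteins bind the small RNAs and the other members make, load or mark them for use. The Argonaute gene aub was at 1.05, 3.88 and 1.04 CPM in the deprived and at 6.32, 2.48 and 0.246 CPM in the replete libraries. Transcripts of piwi, the nuclear Argonaute, were at 2.67, 6.39 and 2.38 CPM in the deprived and at 10.8, 5.02 and 0.492 CPM in the replete libraries. For AGO3, the ping-pong partner of Aub, the values were 2.93, 7.58 and 3.30 CPM in the deprived and 9.11, 4.40 and 0.123 CPM in the replete libraries. All 3 were highest in replete library 1 and lowest in replete library 3, and for each the groups overlapped. The Tudor-domain gene krimp differed in its peak, with 2.19, 9.50 and 2.17 CPM in the deprived and 7.93, 3.84 and 0.738 CPM in the replete libraries, so that deprived library 2 was highest. The HP1 relative rhi, which marks piRNA source loci, also peaked in deprived library 2 at 1.87 CPM, with 0.620 CPM in replete library 1, on 10 to 41 counts outside replete library 3.

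The remaining piRNA members split by how much replete library 3 held. The helicase gene spn-E was at 4.20, 9.32 and 4.09 CPM in the deprived and at 13.4, 7.22 and 4.55 CPM in the replete libraries. There replete library 3 did not stand below deprived libraries 1 and 3, and it kept 63.0% of the median of the others. The gene del, a partner of rhi at piRNA source loci, kept 40.8%, with 17.9 CPM in replete library 1 and 4.55 CPM in replete library 3. The piRNA gene mael kept 65.5%, at 4.52 CPM in deprived library 2, 4.09 CPM in replete library 1 and 1.48 CPM in replete library 3. Spread across libraries was therefore 3.27-fold for spn-E, 3.92-fold for del and 3.06-fold for mael, against 25.7-fold for aub and 74.1-fold for AGO3. The nuclease gene zuc, with 0 to 18 counts, and cuff, another partner of rhi, with 0 to 8 counts, were scarce.

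Genes of egg activation, cell cycle and yolk uptake held the most abundant variable transcripts. The mitotic cyclin gene CycB was at 23.8, 78.7 and 17.5 CPM in the deprived and at 104, 57.9 and 1.23 CPM in the replete libraries. Another mitotic cyclin gene, CycA, was at 14.0, 39.6 and 7.60 CPM in the deprived and at 53.2, 31.3 and 1.23 CPM in the replete libraries. The yolk protein receptor gene yl was at 21.6, 55.1 and 10.2 CPM in the deprived and at 86.5, 35.2 and 1.6 CPM in the replete libraries. All 3 had the same order of libraries, from replete 1 through deprived 2, replete 2, deprived 1 and deprived 3 to replete 3. The germline thioredoxin gene dhd was at 18.4, 24.3 and 10.1 CPM in the deprived and at 84.3, 43.4 and 0.369 CPM in the replete libraries, a 228-fold range. Here replete library 2 stood above deprived library 2. The maternal alpha-tubulin gene alphaTub67C followed dhd in this, at 2.62, 3.79 and 1.84 CPM in the deprived and 13.0, 5.93 and 0.984 CPM in the replete libraries. The egg activation kinase gene png was scarce, at 4 to 22 counts, and its highest value was 1.24 CPM in replete library 2. Per kb of exon, replete library 1 held 88.3 CPM of dhd, 34.3 of CycB, 18.2 of CycA, 13.9 of osk and 13.6 of yl, beside 66.9 of the steady tud.

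Among the 17 members under 25% in replete library 3, that library was the lowest in all 17. They were picked by their low level there, which nearly fixes this rank and their low sum there, so nothing is read from either. Replete library 1 was the highest in 14 and deprived library 2 in 3 (bcd, krimp and rhi), and in 13 these libraries were the top pair. Their summed level was 117, 297 and 76.8 CPM in deprived and 490, 245 and 8.06 CPM in replete libraries. The 5 members at 67% or more summed to 686, 755 and 809 CPM in deprived and 764, 664 and 766 CPM in replete libraries, mostly tud. By the ratio of replete library 1 to the median of the other 5, 20 of 27 members with enough counts were at least 2-fold higher there, where 4.44% of all genes were; the library was picked by osk, vas, otu and aub, so nothing is read from this. The largest ratios were 6.03 for aub, 5.38 for bcd, 5.26 for vas, 5.04 for osk, 4.98 for nanos, 4.94 for alphaTub67C, 4.57 for dhd and 4.39 for CycB. Just inside 2-fold lay mael at 2.13, and just outside it Cp18 at 1.77 and png at 1.76. Set against the highest of the other 5 libraries in place of their median, 4 members were at least 2-fold higher.

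**Figure D3:**
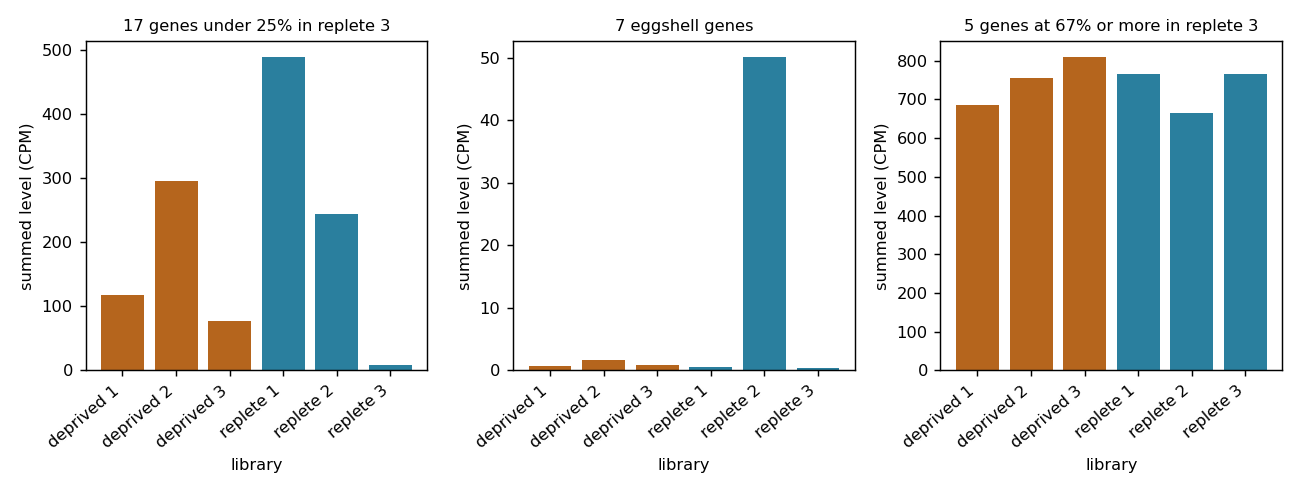
Summed CPM per library of the 17 members under 25% in replete library 3 (left), the 7 eggshell members (middle) and the 5 members at 67% or more (right), with deprived libraries in brown and replete libraries in blue. The left panel peaks in replete 1 at 490 CPM and the middle panel in replete 2 at 50.1 CPM, while the right panel stays between 664 and 809 CPM.

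The proportions of the variable transcripts to each other are given for single pairs of libraries. In deprived library 2, the level of vas was 23.5% of that in replete library 1 (95% exact binomial counting interval 15.0% to 34.7%) and that of dhd was 28.8% (24.9% to 33.3%). For CycB the share was 75.3% (68.4% to 83.0%), for yl 63.7% (57.0% to 71.1%) and for osk 51.5% (43.2% to 61.2%). The intervals of vas and dhd lay below those of osk, yl and CycB, but they leave out the spread between libraries. For pairs within a group, chi-square per degree of freedom was 18.1 to 43.4, on undivided counts over all genes with enough counts. No such value is given for these genes or for this pair. At the upper end, krimp was at 120% (86.9% to 166%) and rhi at 302% on few counts. In replete library 2 the shares lay closer together, at 33.9% for vas, 44.9% for osk, 51.5% for dhd and 55.5% for CycB, with a median of 48.3% over the 17 genes. Each of these compares a pair of libraries and not the diets, and it has no replicate.

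**Figure D4:**
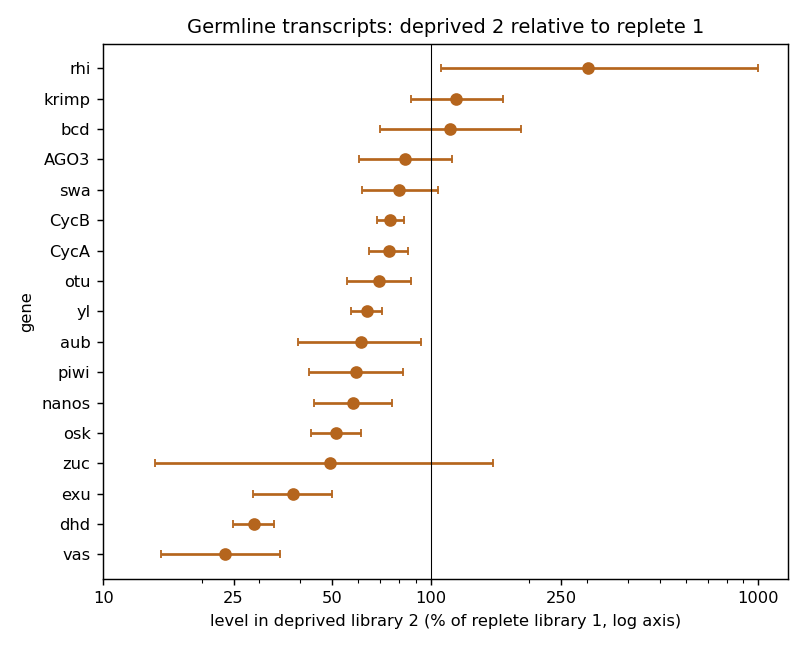
Level in deprived library 2 as a percent of replete library 1 (log axis) for the 17 members under 25% in replete library 3, with 95% counting intervals on counts divided by 2. The genes run from vas at 23.5% and dhd at 28.8% through osk at 51.5% and CycB at 75.3% to krimp at 120% and rhi at 302%.

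Eggshell genes gave the other pattern. The chorion gene Cp38 had 2, 18 and 0 counts in deprived and 0, 433 and 0 counts in replete heads. Its neighbour Cp36 had 130 counts in replete library 2 and none in any other library, and on the other chorion cluster Cp15 had 56 and Cp19 had 62 counts in replete library 2 and none elsewhere. Replete library 1, which had the most osk, thus had no count of these 4. The vitelline membrane gene Vm26Aa had 6, 8 and 0 counts in deprived and 0, 112 and 2 counts in replete heads. For Vm26Ab the counts were 0, 8 and 8 in deprived and 0, 74 and 0 in replete heads. The exception was Cp18, with 8, 2 and 11 counts in deprived and 10, 20 and 4 in replete heads, which was found at a low level in every library.

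In CPM, replete library 2 held 24.4 of Cp38, 7.34 of Cp36, 6.32 of Vm26Aa, 4.18 of Vm26Ab, 3.50 of Cp19, 3.16 of Cp15 and 1.13 of Cp18. Against the other 5 libraries pooled, Cp38 was 123.5-fold higher (95% counting interval 65.7 to 261), Vm26Aa 39.9-fold (18.9 to 97.0), Vm26Ab 26.4-fold (12.1 to 65.6) and Cp18 3.26-fold (1.37 to 7.76). Where the other libraries had no count, the ratio against 3 counts in replete library 1, where they stood for the highest CPM of the other 5, was at least 39.4-fold for Cp36, at least 18.8-fold for Cp19 and at least 17-fold for Cp15. All 7 eggshell members and png were at least 2-fold higher in replete library 2 than in the other 5 pooled, as were 5.52% of all genes with at least 10 counts there. This measure was chosen after the values were seen, and nothing is read from the difference. The 7 genes together held 0.699, 1.64 and 0.793 CPM in deprived and 0.620, 50.1 and 0.369 CPM in replete libraries.

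Neighbouring genes followed different patterns. Cp36 (FBgn0000359, chromosome X, 8479319 to 8480523) and Cp38 (FBgn0000360, X, 8481837 to 8483311) lie beside otu (FBgn0003023, X, 8485008 to 8489535), with 1696 bases between Cp38 and otu. Replete library 1 had 328 counts of otu and none of Cp38 or Cp36, while replete library 2 had 205 of otu, 433 of Cp38 and 130 of Cp36. On chromosome 3L, Cp18, Cp15 and Cp19 lie in a row with 867 and 798 bases between them, and Cp18 had counts in libraries where Cp15 and Cp19 had none. No exons of the 7 eggshell members overlap those of another gene in the annotation.

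Other genes of the same processes were taken from lists written with these results known. Of 22 further genes of egg activation, meiosis and cell cycle, 14 of 19 with enough counts were at least 2-fold higher in replete library 1 and 9 were under 25% in replete library 3. Over all genes with enough counts the shares were 4.44% and 2.06%, and nothing is read from the difference. The ratio was 7.68 for gnu, a regulator of png, 6.22 for the kinesin gene sub, 5 for the meiotic kinase subunit gene Cks30A and 4.84 for the mitotic kinase gene polo. The level of polo was 4.90, 13.7 and 2.59 CPM in the deprived and 23.7, 10.9 and 0 CPM in the replete libraries. Of 21 further piRNA genes, 14 of 19 kept at least 67% in replete library 3, beside 88% of all genes. Of the same 19, 3 (qin, shu and Boot) were at least 2-fold higher in replete library 1. The mitochondrial piRNA factor gene mino was at 283, 330 and 335 CPM in the deprived and 273, 270 and 300 CPM in the replete libraries.

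Of 24 further oocyte polarity genes, 18 of 21 kept at least 67% in replete library 3, close to the 88% of all genes. The genes pgc and bam were at least 2-fold higher in replete library 1. For bam this rested on 12 counts, as many as in deprived library 2, and it passed the filter on counts only through replete library 1. The gene pgc, which holds back transcription in germ cell precursors, was at 1.36, 2.24 and 1.00 CPM in the deprived and 6.26, 5.42 and 0.308 CPM in the replete libraries. Of 14 maternal axis genes, 5 of 13 were at least 2-fold higher in replete library 1, beside 4.44% of all genes. They were tor, gd, snk, fs(1)N and fs(1)M3, of which fs(1)N reached 18.1 CPM there and 0.246 CPM in replete library 3. Of these, gd and snk (10 counts each there) passed the filter on counts only through replete library 1, so nothing is read from the share. Of 16 further eggshell genes, 9 of the 10 with at least 10 counts in replete library 2 were at least 2-fold higher there, beside 5.52% of all genes under that filter. Several passed it only through that library, so nothing is read from the share, as with dec, which had 165 counts there and none in any other library. Some eggshell genes under the filter were highest elsewhere. Vm32E had 14, 27 and 30 counts in deprived and 3, 8 and 8 in replete heads. Cp7Fa had 21 counts in replete library 3 and Fcp3C 16 in deprived library 1, against 8 each in replete library 2. The peroxidase gene Pxt, which follicle cells need for egg maturation, followed osk in its place, at 24.4 CPM in replete library 1, 9.93 CPM in replete library 2 and 0.738 CPM in replete library 3.

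Some midgut protease transcripts had most of their counts in the library that held the eggshell transcripts. Of the midgut protease and digestion list, 11 of 15 genes with at least 10 counts in replete library 2 were at least 2-fold higher there, beside 5.52% of all genes under the same filter. Genes with few or no counts elsewhere passed that filter only through replete library 2, so nothing is read from the share. The serine protease gene Jon99Ciii had 70 counts in replete library 2 and 1 in all others, and the trypsin gene alphaTry had 24 and none. Genes outside the lists with the largest ratios in replete library 2, looked up after the values were seen, included Cyp4g1, an oenocyte enzyme of hydrocarbon synthesis, at 151 CPM against 1.59 to 5.54 CPM elsewhere. The abdominal segment gene abd-A had 40 counts there and 8 in all others, and the female oenocyte desaturase gene Fad2 had 86 and 6. Their part in the eggshell result was not tested.

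In replete library 1 the 12 genes outside the lists with the largest ratios were CG5194, Diedel, AttD, gammaTub37C, Trf4-2, bora, CG18190, Kots, TotM, CG5568, Klp61F and Orc2. The maternal gamma-tubulin gene gammaTub37C had 78 counts there and 0 in replete library 3, while the stress gene TotM had 793 and 326. Testis and accessory gland genes had a count in 14 of 26 cases and 0 of 6 with enough counts were at least 2-fold higher in replete library 1, with Acp62F (14 counts) the only 1 of 4 so in replete library 2. Acp62F also had 14 counts in deprived library 2 and 10 in replete library 3. Over all genes with enough counts, 4.44% were at least 2-fold higher in replete library 1 and 5.52% in replete library 2. Nothing is read from the counts in these short tissue lists. Of flight muscle genes with enough counts, 0 of 8 were at least 2-fold higher in replete library 1 and 0 of 8 in replete library 2, and of spermatheca and female tract genes 0 of 5 and 0 of 5. Among those with too few counts, the spermatheca gene Send1 had 8 counts in replete library 2 and none elsewhere, and the flight muscle gene fln had a ratio of 2.23 in replete library 1 on 9 counts. Of the Malpighian tubule genes with enough counts, 2 of 11 were at least 2-fold above the median of the others in replete library 1. These were salt and ZnT35C (10 counts each), but ZnT35C was higher in deprived libraries 1 and 2, with 24 and 26 counts. In replete library 2 it was 1 of 10, Oatp58Db (12 counts). The 3 yolk protein genes, which head fat body and follicle cells both express, summed to 102000, 85600 and 106000 CPM in the deprived and 86100, 105000 and 104000 CPM in the replete libraries.

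Between the diets, none of the 26 members that passed the filter on low counts differed beyond the spread between libraries (edgeR quasi-likelihood test over 10896 genes, Benjamini-Hochberg adjusted p under 0.05). Over all tested genes 0.33% were called, 32 (0.294%) higher and 4 (0.0367%) lower in deprived heads. DESeq2 and limma-voom also called 0 members, and 0 had an unadjusted p under 0.05, where 5.13% of all tested genes had. The deprived and replete values overlapped in all 26, while 10.9% of tested genes did not overlap. The 8 untested members were the 7 eggshell genes and cuff.

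The variable members were measured with little precision in this comparison. For osk the means were 11.5 ± 7.86 CPM for deprived against 19.2 ± 20 CPM for replete heads (SD, n = 3 each), a log2 fold change of -0.75 ± 1.53 (SE; edgeR quasi-likelihood, adjusted p = 0.999). CycB was at 40 ± 33.7 against 54.5 ± 51.7 CPM, a log2 fold change of -0.45 ± 1.44 (edgeR quasi-likelihood, adjusted p = 0.999). Without replete library 1 both turned positive, at 0.35 and 0.42, as they did with the replicate number as a block and in limma-voom. For dhd the log2 fold change was -1.28 ± 1.45, and it was -0.32 without replete library 1, -1.86 without replete library 3, -0.37 with the replicate number as a block and 0.49 in limma-voom. Over the 17 members under 25% in replete library 3 the SE of the log2 fold change ran from 0.75 to 1.53, against a median of 0.19 over all tested genes. Picking members by a low value in replete library 3 in itself widens the replete spread and the SE. Nothing is therefore read from this difference, or from that to the steady members, which were picked for the opposite.

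The steady members were measured more closely. The log2 fold change of tud was 0.03 ± 0.11, at 584 ± 66.8 against 573 ± 58.5 CPM, and turned to -0.07 without deprived library 3 and -0.05 without replete library 2 (edgeR quasi-likelihood, adjusted p = 0.999 with all libraries). It was 0.14 ± 0.11 for orb, -0.11 ± 0.17 for ovo and 0.27 ± 0.2 for grk (edgeR quasi-likelihood, adjusted p = 0.999 each). The smallest unadjusted p among members was 0.0794, for the scarce png, at 0.327 ± 0.271 against 0.867 ± 0.375 CPM (edgeR quasi-likelihood, adjusted p = 0.995). The median log2 fold change of the 26 was -0.48, beside -0.01 over all tested genes, and 19 were negative and 7 positive. Many of the 26 rose and fell in the same libraries, so their signs are not separate observations and nothing is read from them.

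**Figure D5:**
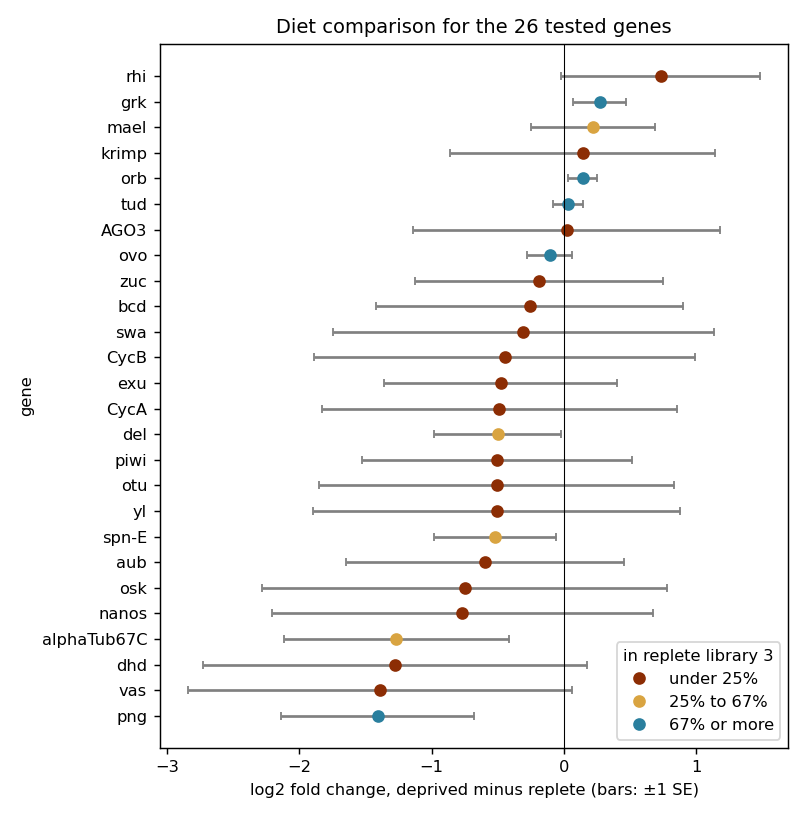
Log2 fold change, deprived minus replete, of the 26 tested members with bars of 1 SE, coloured by their level in replete library 3 relative to the other 5. Values run from -1.41 for png to 0.73 for rhi, and the bars of tud and orb (SE 0.11 each) are much shorter than that of osk (SE 1.53).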

How the data were processed

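Per the labels, total RNA was extracted from heads with Trizol and an RNeasy kit and sequenced with Illumina libraries. The deposited files hold raw counts per FlyBase gene, 1 file per library. Tools listed in the submitters' processing notes were STAR 2.5.3a, Subread 1.6.2 with featureCounts, Trim Galore 0.4.2 and FastQC 0.11.5. The build, annotation, strand setting and handling of read pairs are not stated in the sources used here. Of 17509 identifiers, 17389 matched the Ensembl release 115 annotation (BDGP6.54), which gave symbols, coordinates and exonic lengths.

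The members and lists were chosen with earlier results of these data known. Counts were fitted with edgeR 4.0.16 in R 4.3.3 (filterByExpr with minimum count 10 and minimum total 15, TMM, robust quasi-likelihood F test, group as the only term, Benjamini-Hochberg adjustment over 10896 genes); DESeq2 1.42.0 and limma 3.58.1 were alternatives. In simulated counts for this comparison over 10692 genes, 82% of genes changed 2-fold and 96% of those changed 4-fold were called. No such share is given for the members alone. The members under 25% in replete library 3 had log2 fold change SEs of 0.75 to 1.53. The median over all tested genes was 0.19. The simulated shares therefore do not tell how often a change in those members would be called.

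The rule for naming genes took osk, vas, otu and aub, the 8 members with the largest replete library 1 ratio, up to 8 steady members, all eggshell members, up to 4 genes of each other list and 12 genes with at least 30 counts outside the lists; other names were chosen after their values were seen. Libraries of 1 group differed beyond sampling noise (chi-square per degree of freedom 18.1 to 43.4, on undivided counts over all genes with enough counts). Gene sequences were not used here.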

Additional observations from a re-analysis of the deposited data

How the results depend on the processing

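No member was called between diets under any of the 15 alternatives. Without replete library 3, 6 of 28 tested members, and without deprived library 2, 3 of 26, had an unadjusted p under 0.05. The share of all tested genes under 0.05 in these fits is not given here, so nothing is read from these counts. Over all genes, DESeq2 called 56 higher and 24 lower, and no filter on low counts gave 10 lower. Leaving out 1 library gave 18 to 32 higher genes (20 without deprived library 1, 18 without deprived library 3, 21 without replete library 1) and 2 to 7 lower ones (2 without deprived library 2 or 3, 7 without replete library 2). Same-numbered libraries did not deviate together (r of -0.06, 0.02 and 0.18), so numbers were not taken as pairs; the replicate block gave 24 higher and 6 lower genes and turned the log2 fold changes of osk and CycB to 0.12 and 0.27. In limma-voom osk, CycB and dhd were at 1.75, 0.65 and 0.49. Leaving out 1 library moved osk from -1.47 to 0.35, CycB from -1.41 to 0.42, dhd from -1.86 to -0.32 and tud from -0.07 to 0.09; the cause was not tested. Members at least 2-fold higher in replete library 1 numbered 4 against the highest of the other 5 libraries, and other listed genes 6 in place of 27. The counts of members under 25% in replete library 3 (17 to 19 with 1 library left out) and at least 2-fold higher in replete library 2 (8 to 12) stayed within 1.5 times, in alternatives chosen after seeing the data. The 7 eggshell members and cuff had too few counts for the diet test.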
